A study of Saccharomyces cerevisiae with 4 samples.

Results

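The small-subunit rRNA processing factors are the proteins that assemble on the nascent pre-rRNA, cut and modify it, and carry the 40S ribosomal subunit to maturity. A listed set of 49 yeast genes was taken, matched by symbol or synonym to the open reading frame (ORF) named for each spot, and 48 of them were found among the 6218 ORFs on the arrays. No spot was matched to NOP10, which encodes a small protein of the box H/ACA particle. DBP4 carries the symbol HCA4 in the current annotation. In that annotation none of the 48 genes overlaps another gene, which matters here because spots of double-stranded PCR product cannot tell the strands apart. Transcripts outside that annotation were not checked.

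In budding yeast the small-subunit processome forms around the U3 small nucleolar RNA. The UtpA complex binds the 5′ end of the transcript first, UtpB, UtpC, the Mpp10 complex and the U3 particle follow, and RNA helicases and nucleases then remodel and cleave the RNA before a smaller group of factors accompanies the pre-40S particle to the cytoplasm. Box C/D and box H/ACA particles, named after motifs in their guide RNAs, methylate and pseudouridylate rRNA, and box H/ACA proteins serve both subunits. Genes for ribosome assembly are known in growing yeast as a set transcribed together and sensitive to nutrients.

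RNA was measured in 4 groups with 1 array each. At 5.5 h in acetate-based sporulation medium (SPM) 1 sample was taken, and part of the culture was then spun down and resuspended in glucose-containing rich medium (YPD), with samples at 0, 20 and 40 min. All 4 samples were of SK1 strain GF18 (pSPS4-NDT80), in which a middle sporulation promoter, that of SPS4, drives NDT80, which encodes the activator of middle sporulation genes. The cells had been grown to saturation in YPD and then overnight in acetate-based YPA before SPM. Every sample was labelled with Cy5 and hybridised beside Cy3-labelled RNA of growing wild-type SK1 cells (NKY1551) in YPA, which differ from the samples in strain as well as in medium. No SPM sample later than 5.5 h was part of the series, so the new medium, the handling during transfer and the further time cannot be told apart. RNA came from whole cultures, so a change in every cell and a change in the share of cells that express a gene cannot be told apart either.

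Values are log2 ratios of sample over YPA reference, and ± gives the SD of a gene's 2 spots on an array. This SD leaves out variation between arrays, labellings and cultures and so understates the error, and without replicate arrays no p-value was computed. A gene is called at least 2-fold higher or lower where both of its spots passed that fold. A change after transfer is a YPD ratio minus the SPM ratio, and the changes at 0, 20 and 40 min share the single SPM array. After background subtraction the gene spots had array medians of 922 to 2039 in Cy5 and of 1137 to 1782 in Cy3, and the r between the 2 spots of a gene was 0.975 to 0.982 over all genes. At 5.5 h all 7 sporulation marker genes checked were far above the reference. SMK1 had a log2 ratio of 4.97, and the other 6, whose reference signal was not above background, were at least 50.8-fold to 75.6-fold higher. These 6 include NDT80 (at least 50.8-fold), which the SPS4 promoter drives in this strain but not in the reference. Across all genes the median change after transfer was -0.16, -0.26 and -0.22 at 0, 20 and 40 min.

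Transcripts of the processing factors were higher in YPD at once. At 0, 20 and 40 min, 25, 34 and 33 of the 48 genes were at least 2-fold higher than in SPM, and 1, 1 and 2 genes were lower. Among all genes on the arrays, 7.59% passed the same rule upward at 0 min, 11.5% at 20 min and 13.9% at 40 min, whereas 4.13%, 15.8% and 19.8% passed it downward. For the 48 genes the median changes at the 3 times were 1.11, 2.04 and 1.89.

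The faint signal in SPM limits the size of many of these changes. In the sample channel, 16 of 48 genes (33.3%) were above background in SPM, 30 (62.5%) at 0 min, 41 (85.4%) at 20 min and 40 (83.3%) at 40 min. For all genes these shares were 54.4%, 54.7%, 55.8% and 51.9%, in the same order. Above background means that at least 1 of the gene's spots was brighter than the 95th percentile of buffer-only spots. Of the 25 genes higher at 0 min, 6 were above background on both arrays, 12 in YPD only and 7 on neither. At 40 min these numbers were 9, 22 and 2. Where only the YPD side was above background the change is given as a lower bound. This bound compares levels in the sample channel alone, so it is not a bound on the change of the ratio, which the reference channel also enters, and for a few genes it is the larger of the 2. With such genes set at their bound the median over genes with signal on at least 1 side was 0.72, 1.31 and 1.41 at the 3 times. For all genes on the arrays this median was -0.14, -0.31 and -0.21.

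**Figure D1:**
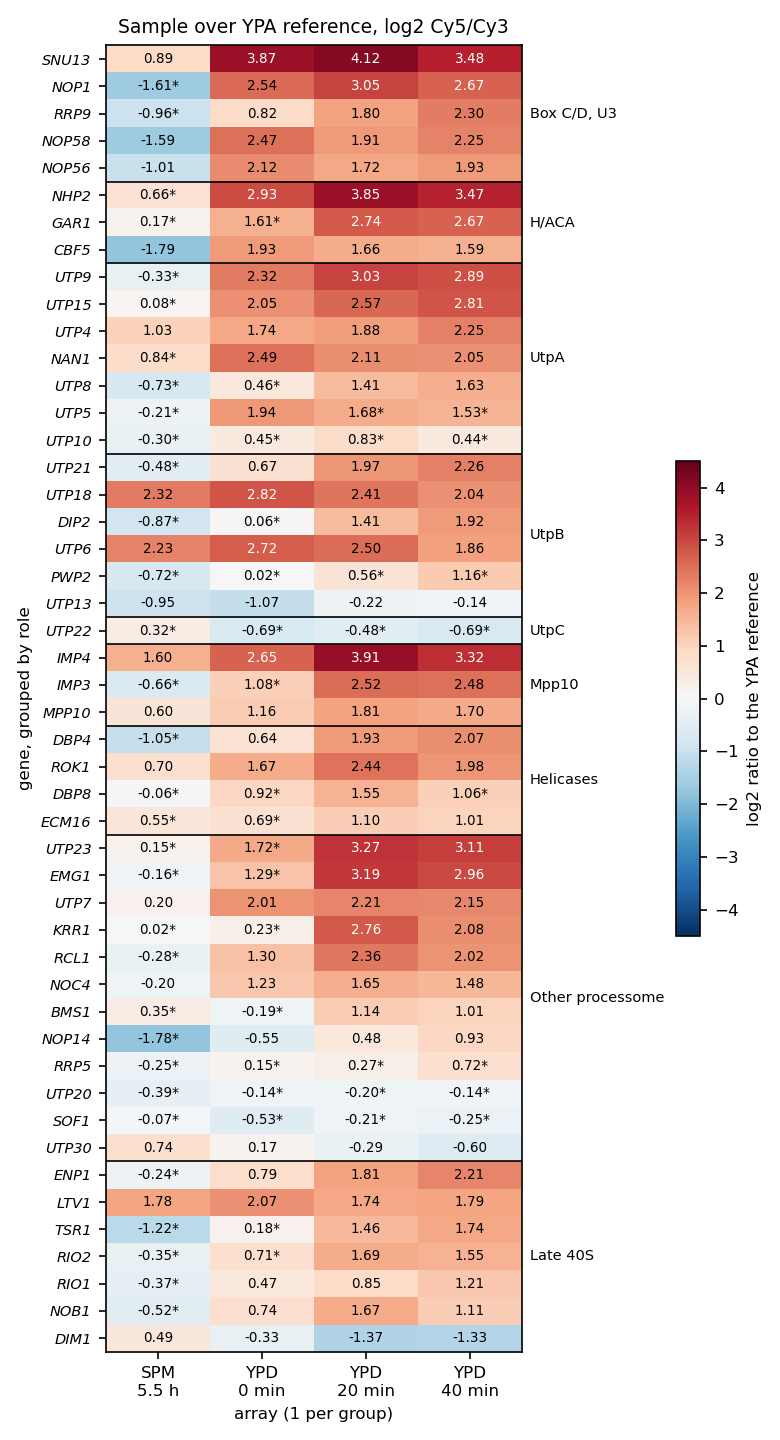
Log2 ratio of sample over YPA reference for each of the 48 genes (rows, grouped by role) on each of the 4 arrays (columns); an asterisk marks a sample signal not above background. The SPM column holds the lowest of the 4 ratios for 39 genes, and the highest ratio lies on the 20 min array for 21 genes and on the 40 min array for 15.

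In SPM few of the processing factors differed 2-fold from the growing reference, and for 16 of them neither channel was above background. Relative to the reference, 4 of 48 genes were at least 2-fold higher and 5 were lower, against 21.7% and 18.1% of all genes. Their median log2 ratio was -0.21, and it took either sign under other processing. The lower genes were NOP1, NOP56, NOP58, CBF5 and NOP14, and 4 of these 5 encode core proteins of the box C/D and box H/ACA particles. The other measured genes of these particles were not called lower. SNU13, NHP2 and GAR1 had ratios of 0.89, 0.66 and 0.17, GAR1 without signal in either channel, and RRP9 had -0.96. NOP14 was at least 2.34-fold and NOP1 at least 1.32-fold below the reference, and NOP56 and NOP58 did not pass 2-fold under every other scaling. The higher genes were UTP18, UTP6, IMP4 and LTV1, all past 2-fold under every scaling, with IMP4 at least 1.91-fold above the reference.

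The box C/D proteins had median changes of 3.14, 3.24 and 3.26 at 0, 20 and 40 min in YPD, and all 5 genes were at least 2-fold higher at each time. NOP1 encodes fibrillarin, the methyltransferase of these particles. Its log2 ratio was -1.61 ± 0.41 in SPM, and 2.54 ± 0.10, 3.05 ± 0.03 and 2.67 ± 0.05 at 0, 20 and 40 min in YPD. The SPM value lay below the YPD values by far more than the spot SD. Since NOP1 was not above background in SPM, the levels in YPD were at least 11.5-fold, 10.5-fold and 11.7-fold higher.

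NOP56 and NOP58 encode the paired scaffold proteins of the box C/D particle. NOP58 had ratios of -1.59 ± 0.45 in SPM and 2.47 ± 0.20, 1.91 ± 0.06 and 2.25 ± 0.13 at 0, 20 and 40 min in YPD. For NOP56 the ratio was -1.01 ± 0.01 in SPM, then 2.12 ± 0.01, 1.72 ± 0.04 and 1.93 ± 0.12 at the same YPD times. Both genes were above background on every array, and as measured both were highest at 0 min. This order was not stable, since between 0 and 20 min the sign of the change turned under 4 of 5 other scalings for NOP56 and under 3 of 5 for NOP58. The changes against SPM were 4.06 ± 0.25, 3.51 ± 0.39 and 3.84 ± 0.32 for NOP58 at 0, 20 and 40 min. For NOP56 the corresponding changes were 3.14 ± 0.03, 2.74 ± 0.05 and 2.95 ± 0.13.

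SNU13 encodes the protein that binds the kink turn of box C/D RNAs and also of the spliceosomal U4 RNA. Unlike the other box C/D genes it was above the reference already in SPM, at 0.89 ± 0.04, and it reached 3.87 ± 0.09, 4.12 ± 0.15 and 3.48 ± 0.14 at 0, 20 and 40 min in YPD. The value at 20 min was the highest ratio of any of the 48 genes on any array. RRP9, a U3-specific protein, gave -0.96 ± 0.09 in SPM and 0.82 ± 0.10, 1.80 ± 0.19 and 2.30 ± 0.00499 at 0, 20 and 40 min. Against SPM its lower bounds were 2.28-fold at 20 min and 3.66-fold at 40 min, whereas at 0 min its signal was too close to the floor for a bound.

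The 3 box H/ACA genes on the arrays were also at least 2-fold higher at each time, with median changes of 2.27, 3.19 and 2.81. CBF5, the pseudouridine synthase, had ratios of -1.79 ± 0.22 in SPM and 1.93 ± 0.10, 1.66 ± 0.04 and 1.59 ± 0.03 at 0, 20 and 40 min in YPD. Signal was above background on all arrays, and the changes were 3.71 ± 0.12, 3.45 ± 0.27 and 3.38 ± 0.19. The ratio at 20 min was below that at 0 min, and this sign turned under 3 of 5 other scalings.

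NHP2 encodes a core protein related in sequence to SNU13. Its ratios were 0.66 ± 0.21 in SPM and 2.93 ± 0.01, 3.85 ± 0.01 and 3.47 ± 0.40 at 0, 20 and 40 min in YPD, with changes of 2.27 ± 0.22, 3.19 ± 0.20 and 2.81 ± 0.19 against SPM. The sample signal in SPM was not above background, and in the sample channel alone the lower bounds were 5.23-fold, 7.54-fold and 8.72-fold, of which those at 0 and 40 min exceed the fold change of the ratio. GAR1 encodes a further core protein. Its ratios were 0.17 ± 0.18 in SPM and 1.61 ± 0.54, 2.74 ± 0.21 and 2.67 ± 0.21 in YPD, and the sample signal passed background only at 20 min (at least 2.69-fold higher than in SPM) and 40 min (at least 2.38-fold). The YPA reference of GAR1 was not above background on any array.

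**Figure D2:**
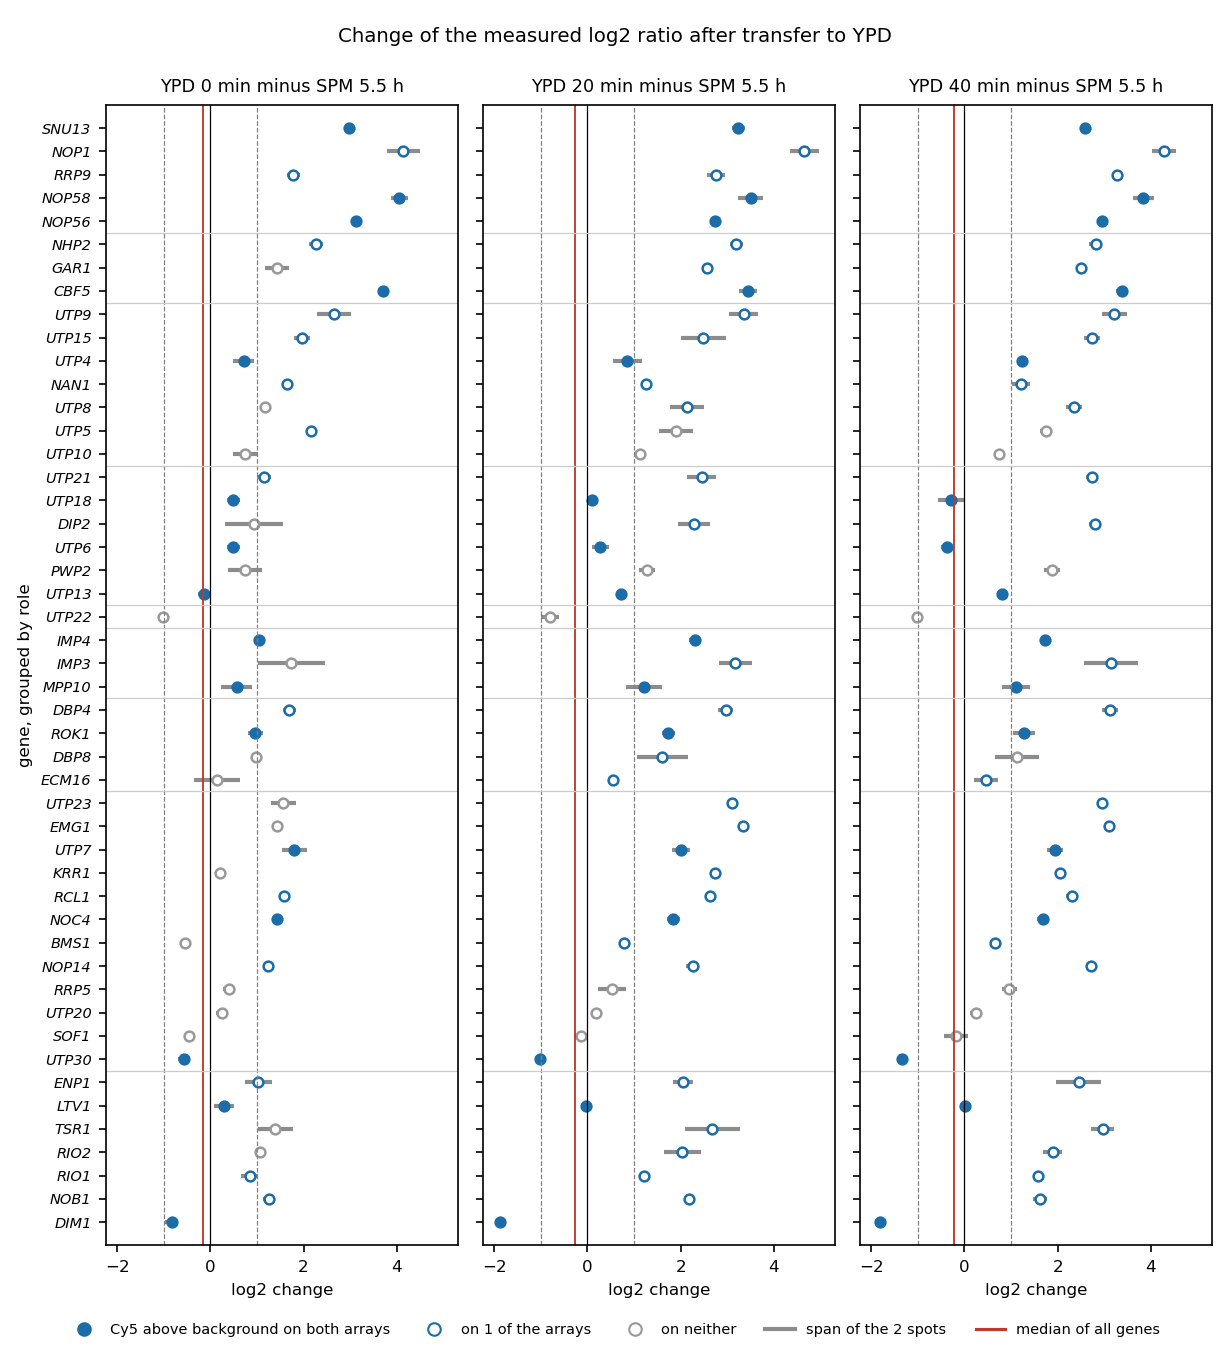
Change of the measured log2 ratio at 0, 20 and 40 min in YPD against 5.5 h in SPM for each gene; bars span the 2 spots, filled circles mark sample signal above background on both arrays, open blue circles on 1, and grey circles on neither. Dashed lines mark 2-fold, and the red line is the median of all genes (-0.16, -0.26 and -0.22). NOP1, NOP58 and CBF5 lie furthest to the right at 0 min, and DIM1 and UTP30 are the filled circles furthest to the left at 40 min.

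Among the complexes of the processome, UtpA had higher measured ratios for most subunits. UtpA is first to bind the pre-rRNA and in yeast is also tied to rDNA transcription. Of its 7 genes, 5, 6 and 6 passed 2-fold upward at 0, 20 and 40 min, with median changes of 1.64, 1.89 and 1.74. With genes that had signal on 1 side set at their bound, only 2, 1 and 2 of the 7 genes passed at these times. UTP9 showed the largest measured change of them, with lower bounds of 2.08-fold, 4.35-fold and 4.17-fold at those times. UTP15 (at least 1.82-fold at 40 min), UTP8 (at least 1.70-fold) and NAN1 (at least 1.73-fold) have lower bounds nearer to 1. UTP4 was above background on every array and passed 2-fold at 40 min only, with a change of 1.23 ± 0.15. The sample signal of UTP5 passed background at 0 min only and that of UTP10 on no array, so no fold is given for them at 20 and 40 min.

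The UtpB complex, which links UtpA to the U3 particle, was less uniform in the measured ratio. Among its 6 genes, 1 passed 2-fold upward at 0 min and 3 did at both later times, and the changes at 40 min spanned -0.37 to 2.79. With genes that had signal on 1 side set at their bound, 0, 2 and 2 of the 6 genes passed, close to the counts for UtpA. UTP21 was at least 5.76-fold higher at 40 min and DIP2 at least 3.67-fold. PWP2 passed 2-fold at 20 and 40 min without signal above background on any array. UTP13 was above background in both channels throughout, stayed under 2-fold, and at 40 min was 0.81 ± 0.10 above SPM. With print-tip loess, a fit within each printing block, its change was past 2-fold, at 1.37 at 20 min and 1.64 at 40 min.

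The other UtpB genes, UTP6 and UTP18, were above the reference already in SPM. UTP18 had ratios of 2.32 ± 0.02 in SPM and 2.82 ± 0.22, 2.41 ± 0.17 and 2.04 ± 0.38 at 0, 20 and 40 min in YPD. For UTP6 they were 2.23 ± 0.05 in SPM, then 2.72 ± 0.14, 2.50 ± 0.31 and 1.86 ± 0.14 at the same YPD times. In SPM, UTP6 was at least 3.14-fold and UTP18 at least 2.18-fold higher than the reference, whose signal was not above background for either gene. Neither gene passed 2-fold against SPM at any time in YPD. At 40 min the change of UTP6 was -0.37 ± 0.19 and that of UTP18 was -0.28 ± 0.40, and for UTP18 the sign turned under 3 of 5 other scalings.

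UTP22, the only UtpC gene of the set, gave no usable signal. Its ratios were 0.32 ± 0.08 in SPM and -0.69 ± 0.08, -0.48 ± 0.19 and -0.69 ± 0.06 at 0, 20 and 40 min in YPD, and neither channel was above background at any time. The single gene called lower at 0 min was UTP22, and in the sample channel alone its change at that time was -0.20.

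In the Mpp10 complex, IMP3 and IMP4 help U3 pair with the pre-rRNA, and MPP10 holds them together. IMP3 and IMP4 were at least 2-fold higher at 20 and 40 min, with IMP3 at least 2.53-fold higher at 40 min. IMP4, above background in every sample, had changes of 1.05 ± 0.17, 2.31 ± 0.18 and 1.72 ± 0.13 at 0, 20 and 40 min. MPP10 did not pass 2-fold in both spots, and its change was 1.10 ± 0.42 at 40 min.

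Among the 4 RNA helicase genes, 1, 3 and 2 passed 2-fold upward at 0, 20 and 40 min. DBP4, which encodes a helicase needed to release the U14 small nucleolar RNA, had lower bounds of 1.18-fold, 4.28-fold and 5.33-fold at those times. ROK1 had changes of 1.73 ± 0.20 at 20 min and 1.28 ± 0.34 at 40 min, with signal on all arrays. DBP8 passed 2-fold at 20 min alone, where its spots differed widely (1.61 ± 0.77). Its sample signal in SPM was not above background, and at its lower bound it did not pass 2-fold. ECM16, the helicase that displaces U3, had a change of 0.46 ± 0.36 in the measured ratio at 40 min, with no sample signal above background in SPM.

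The 12 remaining processome factors and enzymes varied widely. Of these, 6, 7 and 7 passed 2-fold upward at the 3 times, with median changes of 0.82, 1.93 and 1.81. UTP7 and NOC4, the partner of NOP14, were above background on every array, and their changes at 40 min were 1.95 ± 0.25 and 1.68 ± 0.17. RCL1, which encodes a protein of the cleavage step within the processome, was at least 2.49-fold higher at 40 min. Its partner GTPase gene BMS1 stayed under 2-fold, at 0.67 above SPM in the measured ratio at 40 min. RRP5, SOF1 and UTP20 were not above background in the sample channel on any array.

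NOP14 encodes a scaffold protein of the processome. Its ratios were -1.78 ± 0.29 in SPM and -0.55 ± 0.40, 0.48 ± 0.09 and 0.93 ± 0.20 at 0, 20 and 40 min in YPD. In SPM it was at least 2.34-fold below the reference, and against SPM its lower bounds were 1.33-fold, 2.71-fold and 3.20-fold. The value was higher at each successive time, and at 40 min NOP14 lay less than 2-fold above the growing reference.

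KRR1, whose product binds RNA through KH domains in the processome, showed the largest difference between 0 and 20 min. Its ratios were 0.02 ± 0.17 in SPM, 0.23 ± 0.07 at 0 min, 2.76 ± 0.10 at 20 min and 2.08 ± 0.10 at 40 min. The 20 min value was at least 4.74-fold above that of 0 min, while those of SPM and 0 min were both below background. EMG1, the gene of an rRNA pseudouridine methyltransferase, gave -0.16 ± 0.11 in SPM and 1.29 ± 0.28, 3.19 ± 0.10 and 2.96 ± 0.05 at 0, 20 and 40 min. UTP23, which encodes a PIN-domain protein that acts with the snR30 particle, gave 0.15 ± 0.01 in SPM and 1.72 ± 0.37, 3.27 ± 0.15 and 3.11 ± 0.08 at those times. EMG1 and UTP23 passed background in the sample channel at 20 and 40 min only, and at 20 min they were at least 3.54-fold and 3.53-fold higher than in SPM.

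UTP30, whose product resembles a large-subunit ribosomal protein, ran the other way. Its ratios were 0.74 ± 0.04 in SPM and 0.17 ± 0.13, -0.29 ± 0.08 and -0.60 ± 0.01 at 0, 20 and 40 min in YPD, with signal in both channels throughout. The value was lower at each successive time, and the change against SPM was -1.33 ± 0.04 at 40 min. It stayed negative under 5 of 5 other scalings, and under print-tip loess it fell just short of 2-fold.

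Late 40S assembly factors were higher as well, with 3, 5 and 5 of 7 genes past 2-fold at 0, 20 and 40 min. Their median changes were 1.03, 2.03 and 1.62. The 5 genes were ENP1 and TSR1, which bind the pre-40S particle, RIO1 and RIO2, which encode atypical kinases, and NOB1, the nuclease that forms the 3′ end of 18S rRNA. At 40 min their lower bounds were 5.12-fold for ENP1, 2.78-fold for TSR1, 1.59-fold for RIO2 and 1.48-fold for NOB1. For RIO1 the change of the ratio was 1.58 ± 0.08, and the bound in the sample channel alone was 3.48-fold. With such genes at their bound the median of the late factors was 0.29, 1.06 and 0.67 at 0, 20 and 40 min.

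LTV1, whose product leaves the pre-40S particle during its final maturation, was high throughout. Its ratios were 1.78 ± 0.01 in SPM and 2.07 ± 0.30, 1.74 ± 0.12 and 1.79 ± 0.05 at 0, 20 and 40 min in YPD, with signal in both channels throughout. The changes against SPM were 0.29 ± 0.32, -0.04 ± 0.13 and 0.01 ± 0.03, each within the spread of its spots. DIM1, the dimethylase of 18S rRNA, had ratios of 0.49 ± 0.06 in SPM and -0.33 ± 0.14, -1.37 ± 0.02 and -1.33 ± 0.11 in YPD. Against SPM its changes were -0.82 ± 0.20, -1.87 ± 0.04 and -1.82 ± 0.05 at 0, 20 and 40 min. This difference depended on the normalization, since with print-tip loess, which fits each printing block by itself, it was -0.82 at 20 min and -0.26 at 40 min.

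**Figure D3:**
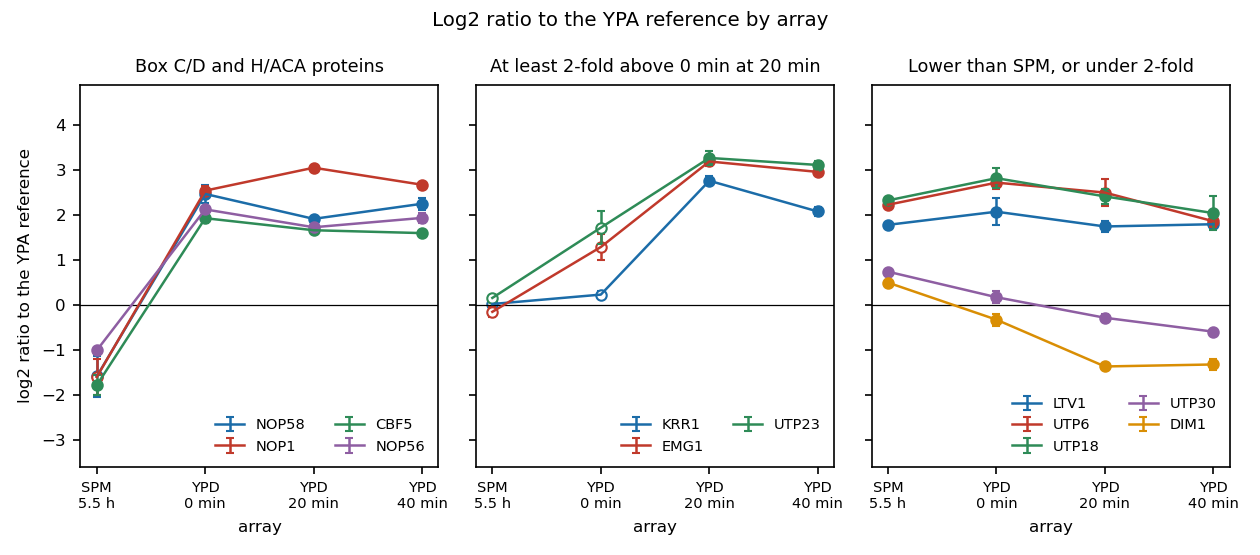
Log2 ratio to the YPA reference on the 4 arrays for 4 box C/D and H/ACA genes (left), 3 genes at least 2-fold higher at 20 than at 0 min (middle), and 5 genes that were lower in YPD or under 2-fold against SPM (right); error bars are the SD of the 2 spots and open circles mark sample signal not above background. NOP58, NOP56 and CBF5 are plotted highest at 0 min, an order that turned under most other scalings, KRR1 steps up between 0 min (0.23) and 20 min (2.76), and LTV1 stays between 1.74 and 2.07.

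Sorted by their calls at 0, 20 and 40 min, 25 genes were at least 2-fold higher at each time, 7 at 20 and 40 min, 2 at 20 min only (UTP10 and DBP8) and 1 at 40 min only (UTP4). DIM1, UTP30 and UTP22 were the 3 genes lower at any time. The 10 genes that passed at no time were UTP6, UTP13, UTP18, UTP20, MPP10, SOF1, BMS1, RRP5, ECM16 and LTV1, and of these UTP20, SOF1 and RRP5 lacked signal in the sample channel on every array. For 25 of the 33 genes higher at 40 min, the change measured at 0 min was more than 0.5 times that at 40 min. Among these, GAR1, IMP3, RIO2, UTP23 and UTP8 had no sample signal above background in SPM or at 0 min. Both changes share the SPM array, and the share among all genes was not computed. The exceptions were UTP21, DIP2, PWP2, ENP1, KRR1, NOP14, EMG1 and TSR1. As measured, none of these 8 belongs to the box C/D, box H/ACA or UtpA groups, but this split depended on the scaling. In the authors' value table the changes at 0 and 40 min were 0.52 and 1.89 for UTP8 and 1.00 and 2.67 for RRP9. For GAR1 they were 1.04 and 2.63, and by these values UTP8, RRP9 and GAR1 would be exceptions too.

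Between 0 and 20 min in YPD, 10 of 48 genes were at least 2-fold higher and 0 were lower, against 6.20% and 7.51% of all genes. The 10 genes were KRR1, EMG1, UTP23, IMP3, IMP4, BMS1, DIP2, UTP21, DBP4 and TSR1, and their role groups were the Mpp10 complex (2 of 3 genes), UtpB (2 of 6), helicases (1 of 4), late 40S factors (1 of 7) and other processome factors (4 of 12). GAR1, RRP9 and RIO2 did not pass, although under 4 of 5 other scalings the mean of their spots was past 2-fold. For ENP1 and NOB1 this held under 3 of 5. Between 20 and 40 min, 0 genes passed in either direction, against 4.05% and 1.58% of all genes, and the changes spanned -0.68 (KRR1) to 0.60 (PWP2) with a median of -0.07.

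At 40 min in YPD the processing factors exceeded the growing YPA reference. In this comparison 36 of 48 genes were at least 2-fold higher and 1, DIM1, was lower, against 19.7% and 17.7% of all genes. The median ratio was 1.89, and for 24 of the 36 genes both channels were above background. SNU13 (3.48 ± 0.14) and NHP2 (3.47 ± 0.40) had the highest ratios. DIM1 stood at -1.33 ± 0.11, but at 0.02 with print-tip loess. The reference differs in strain and carbon source, and no dye swap was made.

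The other genes of the same pathway, 44 listed small-subunit factors outside this set, included many that were higher as well. The numbers at least 2-fold higher were 15, 28 and 25 of 44 at 0, 20 and 40 min, and those lower were 0, 0 and 1. Median changes were 1.11, 2.04 and 1.89 for the processing factors, and 0.80, 1.73 and 1.52 for these genes. With dim sides at their bound, 10, 26 and 26 of the 48 processing factors were higher (medians 0.72, 1.31 and 1.41). Of these 44 genes, 7, 19 and 12 were higher by that rule (medians 0.62, 1.01 and 0.80). Among all 6218 genes 319, 516 and 627 were (medians -0.14, -0.31 and -0.21). SAS10, a processome subunit, was at least 4.61-fold higher at 40 min, and CKA1, a catalytic subunit of the casein kinase 2 that joins UtpC, at least 3.73-fold. The gene that was lower at 40 min was TSR4.

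Of 69 large-subunit assembly factors, 32, 49 and 45 passed 2-fold upward at the 3 times, with median changes of 1.06, 1.96 and 1.88. With dim sides at their bound these were 18, 36 and 33 genes, with medians of 0.76, 1.32 and 1.13. Small-subunit ribosomal protein genes had larger median changes. In SPM 5 of 48 processing factors were at least 2-fold below the reference with a median of -0.21, against 47 of 56 ribosomal protein genes with a median of -2.56. The reference signal on that array was above background for 29 of the 48 and for 54 of the 56, so faint signal limits this comparison. In YPD the median changes of the ribosomal protein genes were 2.07, 3.98 and 4.40, and with dim sides at their bound 1.92, 3.66 and 3.88. Between 0 and 20 min 10 of 48 processing factors were at least 2-fold higher (median 0.58), against 45 of 56 ribosomal protein genes (median 1.65). Many ribosomal protein genes come in near-identical pairs whose cDNA can bind the spots of both copies. Against the YPA reference at 40 min the medians of the processing factors (1.89), large-subunit assembly factors (1.74) and small-subunit ribosomal protein genes (1.77) were close.

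**Figure D4:**
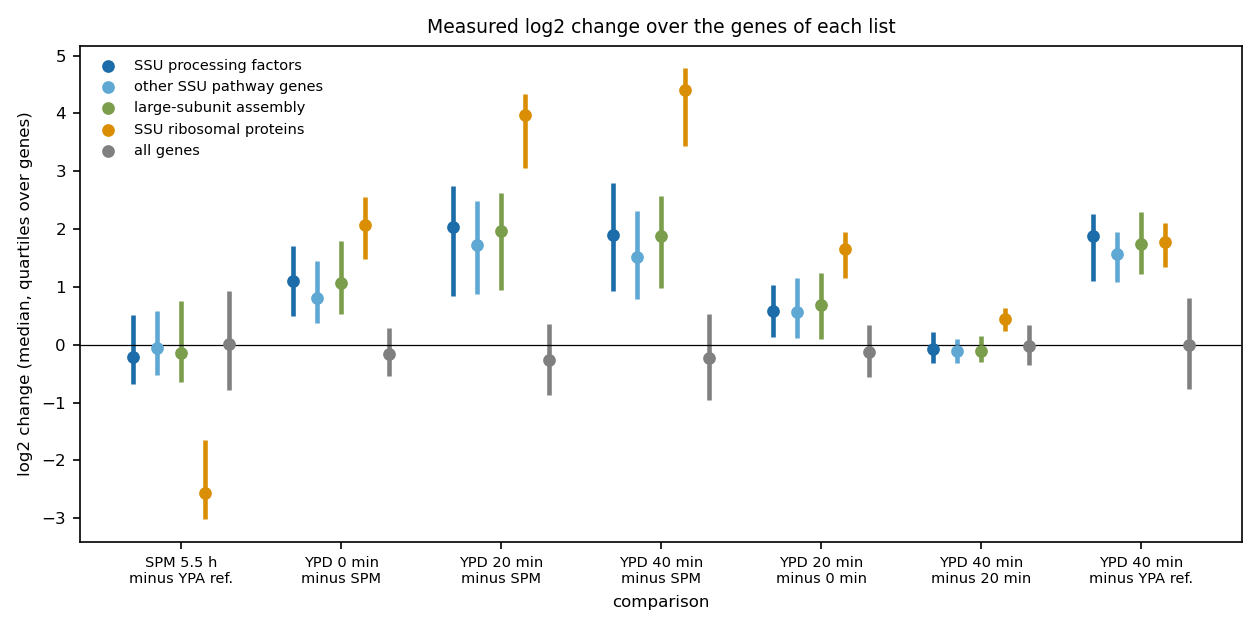
Median log2 change (points) and quartiles (bars) over the genes of each list for 7 comparisons; the lists are the processing factors (48 genes), other small-subunit pathway genes (44), large-subunit assembly factors (69), small-subunit ribosomal proteins (56) and all genes (6218). In the measured ratio only the ribosomal protein list lies far below the reference in SPM (-2.56), where faint signal limits the other lists. At 40 min all 4 ribosome lists lie between 1.57 and 1.89 above the reference.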

How the data were processed

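The arrays carried PCR products of yeast ORFs in 2 adjacent spots each. The authors quantified both channels with QuantArray, and the deposited scanner files hold spot and local background intensity on a linear scale, neither background-subtracted nor normalized. A table deposited by the authors gives log2 sample/reference ratios, centred on each array's median (0 in every column) after background subtraction, a floor at the mean of the buffer spots and removal of poor spots. In the labels, the protocol text and the dye fields disagree on which dye marks the sample. The authors' steps, redone from the intensities, gave log2 Cy5/Cy3 of the same sign as that table (r = 0.995 to 0.998 over 5492 to 5496 genes per array), so Cy5 was taken as the sample.

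Here background was corrected by the normexp method with an offset of 50 (limma 3.58.1, R 4.3.3) and ratios were adjusted by 1 loess curve per array (span 0.3) with 236 buffer and 384 Arabidopsis spots at weight 0, then centred on the gene spots and averaged over spots. On the 0 min array 17 marked spots were left out. Lower bounds compare the brighter side with the dim side's measured value or the lowest detected one, whichever is higher, per channel after loess and Aquantile, and are open to dye bias where they cross channels. The normalization and the rule on both spots were run on simulated data, whereas the lower bounds and the calls above background were not. Of 6218 ORFs, 5663 matched a RefSeq locus tag (assembly R64) and 555 kept the file's name. Of the 6159 probes of the value table, 5562 have 1 gene symbol, 0 several and 597 none.

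The genes, their roles and the comparison lists were chosen with earlier results of these data known. Values on every array are printed for the 3 largest rises and 3 largest falls past 2-fold, with the brighter side above background, in each contrast but that of 40 min against the reference, for every gene lower in YPD and for the box C/D and H/ACA proteins. The other genes are given by counts, ranges and changes. Alternatives were the authors' steps, their value table, array median or print-tip loess, only genes with signal in both channels on all arrays, bounds, single spots, and the sample channel alone. Promoter and protein sequences were not analysed here. The number of arrays limits the precision.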

Additional observations from a re-analysis of the deposited data

How the results depend on the processing

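The counts and medians of the processing factors after transfer kept their direction under each alternative run (the authors' steps, their value table, array median, print-tip loess, a filter on dim genes, bounds, single spots and the sample channel alone). The counts of genes higher than in SPM spanned 6 to 29 at 0 min, 7 to 37 at 20 min and 8 to 37 at 40 min. The low ends come from the 13 genes with signal in both channels on all arrays, of which 6, 7 and 8 were at least 2-fold higher, and 3 were lower than the reference in SPM. The share among all 1984 genes that pass this filter was not computed. With dim sides at their bound, 10 genes passed at 0 min, against 319 of all 6218 genes. The medians of the processing factors were then 0.72, 1.31 and 1.41 at 0, 20 and 40 min. The median of the 13 genes was 0.49 in SPM and 1.28 at 40 min. From spot 1 alone, 11 genes were lower than the reference in SPM, against 5 from both spots. Other scalings moved the median of all genes by up to 0.1, and relative to all genes the processing factors lay 0.93 to 1.31 higher at 0 min, 1.98 to 2.37 at 20 min and 1.99 to 2.19 at 40 min, whereas in SPM the difference was -0.13 to 0.03 under other scalings and -0.21 as reported.

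Of the genes called higher, 16 of 25 at 0 min, 30 of 34 at 20 min and 29 of 33 at 40 min passed 2-fold under every other scaling, and 0 of the 2 called lower at 40 min did (DIM1 and UTP30). In SPM, NOP56 and NOP58 were not past 2-fold below the reference under every scaling. The cause of these shifts was not tested. No paired analysis was possible because each group has 1 array and no replicate numbers were given. Signal over background limits the values, since only 16 of the 48 genes were above background in the sample channel in SPM.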

Other observations

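In the current annotation 8 of the 48 processing factor genes have a gene of small-subunit ribosomal proteins or of ribosome assembly as a direct neighbour, and 3 of these share a divergent promoter region with a ribosomal protein gene. The share of all genes with such a neighbour was not determined, so the count is a description only. TSR1 and its neighbour RPS29B were both higher at 40 min than in SPM, by at least 2.78-fold for TSR1 and at least 6.42-fold for RPS29B. For UTP6 the change was -0.37 ± 0.19, while RPS18A, across the same intergenic region, was at least 16.1-fold higher. RRP5 had no signal above background in the sample channel on any array, and its neighbour RPS10B was at least 12.9-fold higher at 20 min. These pairs were picked after the values were seen.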
